A study of Mus musculus with 16 samples.

Results

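The mast cell proteases and receptors followed here are 8 mouse genes: the chymases Cma1 and Mcpt4, the carboxypeptidase Cpa3, the tryptases Tpsb2 and Tpsab1, the stem cell factor receptor Kit, and the IgE receptor chains Fcer1a and Ms4a2. They form a list of names that was drawn up with earlier results of these data known, and every array probe annotated to one of them was kept. This gave 10 probes, with 2 probes each for Cma1 and Mcpt4, out of 41174 probes for 27703 gene names. Of these, 9 probes of 7 genes were bright enough to be tested, and the Tpsab1 probe was not. The array annotation lists Cma1 as Mcpt5, Tpsb2 as Mcpt6 and Tpsab1 as Mcpt7.

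The lungs came from 16 females of the inbred A/J strain, which develops lung tumours readily, in 4 groups of 4. Every mouse ate the AIN-76 basal diet, which holds 0.35 ppm selenium. The Untreated group had nothing else. The NNK group received 1 intraperitoneal dose of the tobacco-specific nitrosamine NNK, labelled as 10 uM in 0.2 mL saline, and was killed 13 days later. The SECY group ate 15 ppm selenocystine, a selenium-containing amino acid, for 10 days. The NNK+SECY group had the NNK dose and, from 3 days after it, the same selenocystine diet for 10 days. RNA of whole lung was measured, so fewer cells of a type and less RNA per cell cannot be told apart. Each array compared the Cy5-labelled RNA of 1 mouse with 1 Cy3-labelled pool of the 4 untreated lungs, and no dyes were swapped. On the log2 ratio scale, 0 means equal Cy5 and Cy3 signals after the dyes were balanced. Because every lung was labelled in Cy5, 0 need not mean a level equal to the pool. The Mcpt4 probe A_51_P145132, for example, averaged 0.12 in the Untreated lungs that made up the pool. Differences between groups are therefore read here rather than distances from 0.

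Mast cells are tissue-resident immune cells that store proteases, histamine and heparin in granules and release them when IgE bound to the high-affinity receptor is cross-linked. Chymases such as Mcpt4 cleave after aromatic residues, tryptases cleave after basic ones, and Cpa3 trims the ends of peptides. The product of mouse Cma1 is named a chymase but has an elastase-like specificity. In the mouse, connective tissue mast cells lie around airways and vessels and in the pleura, and are sparse in the lung of an unchallenged animal. Kit and its ligand Kitl keep mast cells alive, and the transcription factors Gata2 and Mitf drive many of their genes.

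The windows before the start sites of the 3 protease genes Cma1, Mcpt4 and Cpa3 are shown because these genes are all used as granule markers while their probes gave different values below. Each is the 250 bases before an annotated start, 5′ to 3′ on the gene's strand, from RefSeq on build GRCm38.p6. For Cpa3 that start lies inside the outermost end of the gene's annotation, so the first bases of the longest gene model fall within the window. Capitals mark GATA on either strand (TATC is the same letters read on the other strand). The Cma1 window is chr14:55944676-55944925, the Mcpt4 window is chr14:56062311-56062560 and the Cpa3 window is chr3:20242182-20242431, all on the minus strand.
Cma1: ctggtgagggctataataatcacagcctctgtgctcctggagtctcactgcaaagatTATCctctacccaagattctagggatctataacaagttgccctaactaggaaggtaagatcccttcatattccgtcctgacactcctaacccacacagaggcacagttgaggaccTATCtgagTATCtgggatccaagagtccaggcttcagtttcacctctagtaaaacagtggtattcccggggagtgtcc
Mcpt4: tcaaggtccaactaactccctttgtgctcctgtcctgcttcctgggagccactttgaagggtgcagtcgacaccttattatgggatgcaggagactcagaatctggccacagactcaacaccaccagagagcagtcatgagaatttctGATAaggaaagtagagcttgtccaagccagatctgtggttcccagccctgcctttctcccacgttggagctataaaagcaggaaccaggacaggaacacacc
Cpa3: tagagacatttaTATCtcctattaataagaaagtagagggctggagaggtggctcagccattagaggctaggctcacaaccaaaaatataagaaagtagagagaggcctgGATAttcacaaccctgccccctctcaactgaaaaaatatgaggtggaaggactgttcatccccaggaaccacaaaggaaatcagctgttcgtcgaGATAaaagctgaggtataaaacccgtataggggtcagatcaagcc
GATA occurred 3 times in the Cma1 window, 1 time in the Mcpt4 window and 3 times in the Cpa3 window. GATA with A or T before it and A or G after it, a longer word that overlaps these matches, occurred 1 time in each on either strand. Such words are common: 53.6% of 32817 windows of this length held GATA and 26.6% held the longer word. The matches are descriptions of letters, and no binding was measured. RefSeq windows were matched for 6 of the 8 genes.

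All protease probes and Fcer1a were dim, with median raw Cy5 signals under 2.5 times their local background, while Ms4a2 was at 4.86 times and varied widely between arrays. Raw Cy5 signals of the compact Cma1 probe, whose annotated position covers 60 bases, ran from 67.8 to 107.6, about 1.94 times the local background at the median. The Kit probe, at 537.1 to 1037, had a median of 18.4 times its background. The main processing adds an offset of 50 to every signal, which shrinks the ratios of dim probes in general. The labelled tissue is whole lung, and the 12 listed lung markers were all tested, among them the surfactant genes Sftpc and Sftpb, the club cell gene Scgb1a1 and the alveolar macrophage gene Marco. The arrays of the Untreated and NNK mice shared slides 1 to 4, and those of the SECY and NNK+SECY mice shared slides 5 to 8. The arrays of both NNK-treated groups were scanned on a different day from the other arrays. Slide set and diet, and scan day and NNK, therefore cannot be told apart. The comparison of NNK+SECY with NNK lies within 1 scan day but across both slide sets. From 66.1% to 72.4% of probes were well above background in Cy5 on slides 1 to 4, against 74.9% to 79.1% on slides 5 to 8.

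Cma1, which encodes the connective tissue chymase mMCP-5, was lower in lungs given NNK and then selenocystine than in lungs given NNK alone by its compact probe (A_51_P514035). The log2 ratios were -0.03, 0.00, -0.03 and -0.02 in Untreated mice. They were 0.17, 0.09, 0.16 and 0.07 in NNK mice. They were 0.07, 0.19, 0.08 and -0.11 in SECY mice, and -0.13, -0.20, -0.20 and -0.20 in NNK+SECY mice. All 4 NNK+SECY lungs were below every other lung of the study, and all 4 NNK lungs were above every Untreated lung. The log2 difference between NNK+SECY and NNK was -0.31 ± 0.05 (SE, n = 4 and 4, 95% interval -0.42 to -0.19), a change of -19.1% (limma, Benjamini-Hochberg adjusted p = 0.00377). In this comparison 1.56% of 30744 probes passed the same test, and 1.28% passed it as lower. The change was in the lung channel: the log2 Cy5 signal differed by -0.34 and the Cy3 signal of the common pool by -0.03.

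The size of this difference depended on the handling of dim signals, while its call did not. With the scanner files' processed signals the compact probe read 0.32, 0.27, 0.33 and 0.16 in NNK lungs. In the NNK+SECY lungs it read -0.23, -0.58, -0.32 and -0.45. On that scale the groups again did not overlap, and the log2 difference was -0.66 ± 0.12 (limma adjusted p = 0.00572). Over 29 alternative analyses of NNK+SECY against NNK, the log2 difference lay between -0.67 and -0.29, and the adjusted p ran from 0.000917 to 0.0178.

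The other comparisons of the compact Cma1 probe did not pass the adjusted threshold. The log2 difference of NNK from Untreated was 0.14 ± 0.05 (limma adjusted p = 0.862) although the groups did not overlap, and 0.211% of probes passed in that comparison. It was 0.08 ± 0.05 for SECY against Untreated (limma adjusted p = 0.811), where 0.283% of probes passed. NNK+SECY lungs lay -0.17 ± 0.05 from Untreated lungs on the log2 scale (limma adjusted p = 0.224), where 1.44% of probes passed. NNK+SECY lungs lay -0.24 ± 0.05 from SECY lungs (limma adjusted p = 0.396), a comparison in which 0.00651% of probes passed. By dye, log2 Cy5 and Cy3 differed by 0.05 and -0.09 for NNK against Untreated, and by -0.03 and -0.11 for SECY against Untreated. They differed by -0.29 and -0.13 for NNK+SECY against Untreated, and by -0.26 and -0.02 for NNK+SECY against SECY. For NNK and for SECY against Untreated the larger part of the shift was thus in the pool's channel. Within the slides that hold 1 array of each, NNK+SECY minus SECY ran from -0.39 to -0.10, and NNK minus Untreated from 0.09 to 0.20. Since the groups of each pair did not overlap, every slide had to give the same sign, so these signs add no support. Both arrays of a slide were scanned on different days. The effect of NNK with the diet minus its effect without it, which is the interaction of both treatments, was -0.38 ± 0.08 on the log2 scale. Its adjusted p was 0.396 by limma, with 0.00651% of probes past the threshold, so the difference between the 2 effects of NNK was not called.

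**Figure D1:**
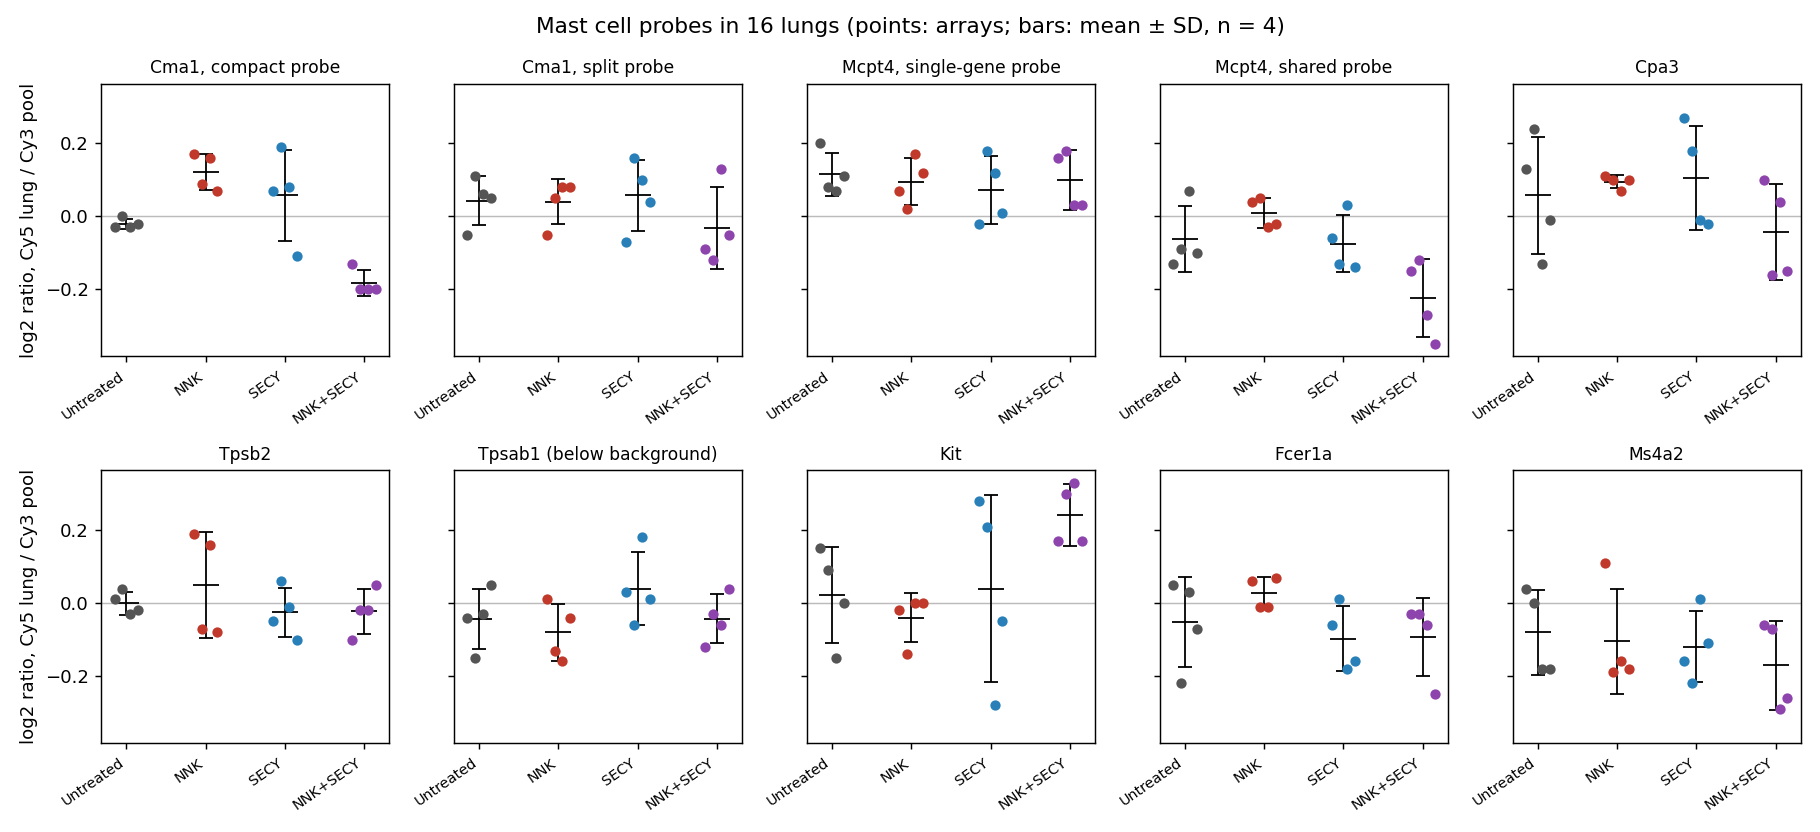
Log2 ratio of lung over pool (vertical axis) for the 10 probes in the 4 groups; points are arrays and bars give the mean ± SD of 4 arrays. In the first panel the 4 NNK+SECY lungs, at -0.20 to -0.13, lie below all other lungs, and in the second, the split Cma1 probe, the groups overlap.

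The second Cma1 probe (A_51_P514029) gave no call in any comparison. Its annotated position spans 1060 bases, so it is called the split probe here. It was well above background in Cy5 on 13 of 16 arrays and in Cy3 on 1 of 16. Its log2 ratios were -0.05, 0.05, 0.08 and 0.08 in NNK lungs and -0.09, -0.12, 0.13 and -0.05 in NNK+SECY lungs. Untreated lungs ran from -0.05 to 0.11 and SECY lungs from -0.07 to 0.16. All 4 groups overlapped, and the log2 difference between NNK+SECY and NNK was -0.07 ± 0.06 (95% interval -0.20 to 0.06, limma adjusted p = 0.768). The log2 ratio of the compact probe minus that of the split probe on the same array averaged 0.08 ± 0.10 (SD, n = 4) in NNK lungs and -0.15 ± 0.13 in NNK+SECY lungs. Whether both probes respond differently was not tested. Over the 16 arrays the log2 ratios of both Cma1 probes had Pearson r = 0.38, and they share the same hybridisations.

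Mcpt4, the chymase mMCP-4, had a pair of probes, and neither passed the adjusted threshold in any comparison. The single-gene probe (A_51_P145132) lists 1 RefSeq transcript. The shared probe (A_51_P145130) lists 4 RefSeq transcripts, of which 1 is named Mcpt4 and 1 Cma2 in the RefSeq table, so its signal may mix related proteases. The shared probe read 0.04, 0.05, -0.03 and -0.02 in NNK lungs and -0.15, -0.12, -0.27 and -0.35 in NNK+SECY lungs. Untreated lungs ran from -0.13 to 0.07 and SECY lungs from -0.14 to 0.03. The NNK and NNK+SECY groups did not overlap, but the log2 difference of -0.23 ± 0.06 missed the threshold (limma adjusted p = 0.0736). It passed under 3 of 29 alternative analyses: with array weights (limma adjusted p = 0.0381), when the SECY 3 array was left out (limma adjusted p = 0.042), and when the NNK+SECY 2 array was left out, at an adjusted p of 0.04999 by limma.

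The single-gene Mcpt4 probe read 0.07, 0.02, 0.17 and 0.12 in NNK lungs and 0.16, 0.18, 0.03 and 0.03 in NNK+SECY lungs. Values were 0.07 to 0.20 in Untreated lungs and, in SECY lungs, -0.02 to 0.18. All 4 groups overlapped, and the log2 difference between NNK+SECY and NNK was 0.01 ± 0.06 (95% interval -0.11 to 0.13, limma adjusted p = 0.987). Over all 6 comparisons its log2 difference stayed between -0.04 and 0.05. The within-array difference of the shared minus the single-gene probe was -0.09 ± 0.10 (SD, n = 4) in NNK lungs and -0.32 ± 0.04 in NNK+SECY lungs. These values are a description, with no test.

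Cpa3, the carboxypeptidase stored beside Cma1 in granules, passed no adjusted test in any comparison. Its log2 ratios were 0.11, 0.10, 0.07 and 0.10 in NNK lungs and 0.10, -0.16, 0.04 and -0.15 in NNK+SECY lungs. The NNK lungs were close together while the NNK+SECY lungs split into a higher and a lower pair, and the groups overlapped. The log2 difference was -0.14 ± 0.08 (95% interval -0.31 to 0.04, limma adjusted p = 0.651). Untreated lungs ran from -0.13 to 0.24 and SECY lungs from -0.02 to 0.27, ranges wider than any difference between group means of Cpa3. Over 16 arrays the log2 ratio of Cpa3 had Pearson r = 0.57 with the compact Cma1 probe and 0.20 with the split probe. These correlations are over lungs of 4 treatment groups and are given as descriptions.

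The tryptases gave little signal. Tpsb2, the tryptase mMCP-6, read 0.19, -0.07, 0.16 and -0.08 in NNK lungs and -0.10, -0.02, -0.02 and 0.05 in NNK+SECY lungs. In Untreated lungs Tpsb2 read -0.03 to 0.04 and in SECY lungs -0.10 to 0.06. The groups overlapped, and over the 6 comparisons the log2 difference ranged from -0.07 to 0.05, with a smallest limma adjusted p of 0.787. Tpsab1, the tryptase mMCP-7, was not well above background on any of the 16 arrays in either dye, with raw Cy5 signals of 42.5 to 58.5. No level and no comparison are given for it, and its panel in the plot of log2 ratios shows only the scatter of a probe near background.

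Kit, the receptor for stem cell factor, read higher in all NNK+SECY lungs than in all NNK lungs but passed no adjusted test. Its log2 ratios were 0.15, 0.09, -0.15 and 0.00 in Untreated lungs. They were -0.02, -0.14, 0.00 and 0.00 in NNK lungs, 0.28, 0.21, -0.28 and -0.05 in SECY lungs, and 0.17, 0.30, 0.33 and 0.17 in NNK+SECY lungs. All 4 NNK+SECY lungs were above all NNK and all Untreated lungs, while the SECY lungs spread widely. The lowest SECY value came from the SECY 3 array. That array had the lowest array weight of the study, 0.211, and a mean correlation of 0.031 with its group. The log2 difference of NNK+SECY from NNK was 0.28 ± 0.10 (95% interval 0.08 to 0.49), and it did not pass (limma adjusted p = 0.266). It passed only when the fit was limited to the 8 arrays compared (limma adjusted p = 0.0202). Against Untreated lungs the log2 difference was 0.22 ± 0.10 (limma adjusted p = 0.518). Kit is also made by endothelial and other lung cells. Of 11 listed endothelial markers other than Kit, 9 lay below 0 between NNK+SECY and NNK, with a median log2 difference of -0.09 and 0 calls. Of all probes, 49.1% lay below 0 there and 1.56% were called. Their summed Cy5 signal, that of the 11 markers, was 22311 to 24910 in NNK lungs and 22178 to 23567 in NNK+SECY lungs. Between NNK+SECY and SECY, where Kit differed by 0.20 ± 0.10 (limma adjusted p = 0.83), 3 of the 11 lay below 0, with a median of 0.06. The part of endothelial cells in the Kit values was not tested.

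The IgE receptor chains gave no calls. Fcer1a, the chain that binds IgE, read 0.06, -0.01, -0.01 and 0.07 in NNK lungs and -0.03, -0.03, -0.06 and -0.25 in NNK+SECY lungs. The Fcer1a range was -0.22 to 0.05 in Untreated lungs and, in SECY lungs, -0.18 to 0.01. The NNK and NNK+SECY groups did not overlap, but the log2 difference of -0.12 ± 0.07 did not pass (95% interval -0.26 to 0.02, limma adjusted p = 0.610). By dye, the log2 Cy5 signal of Fcer1a differed by -0.01 and the Cy3 signal of the common pool by 0.11, so this separation was not in the lung channel. Ms4a2, the beta chain that amplifies the signal, read 0.11, -0.19, -0.16 and -0.18 in NNK lungs and -0.06, -0.07, -0.29 and -0.26 in NNK+SECY lungs. Its range was -0.18 to 0.04 in Untreated lungs and, in SECY lungs, -0.22 to 0.01. All 4 groups overlapped, and over the 6 comparisons the Ms4a2 log2 difference lay between -0.09 and -0.02.

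The Ms4a2 probe differed from the other members in its reference channel. The Cy3 sample was the same pool on every array, yet the log2 Cy3 signal of Ms4a2 covered a range of 2.91 over the 16 arrays, wider than that of 99.7% of tested probes, whose median range was 0.381. Mean log2 Cy3 signals were 6.89 on Untreated, 6.99 on NNK, 8.79 on SECY and 8.03 on NNK+SECY arrays. The Cy5 means followed them, at 6.81, 6.89, 8.67 and 7.86. Both dyes moved together from array to array, also within a group: the Cy5 signal on the 4 Untreated arrays was 6.11, 6.42, 6.98 and 7.73. All SECY arrays were above all Untreated and NNK arrays in Cy5, whereas the NNK+SECY 1 array, at 7.02, lay among them. In Cy5 alone Ms4a2 was higher by 1.86 log2 units in SECY than in Untreated lungs, where the log2 ratio differed by -0.04 ± 0.08 (limma adjusted p = 0.960). The Cy3 signal of the compact Cma1 probe covered a log2 range of 0.317 and that of Kit 0.357, near the median of all probes.

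**Figure D2:**
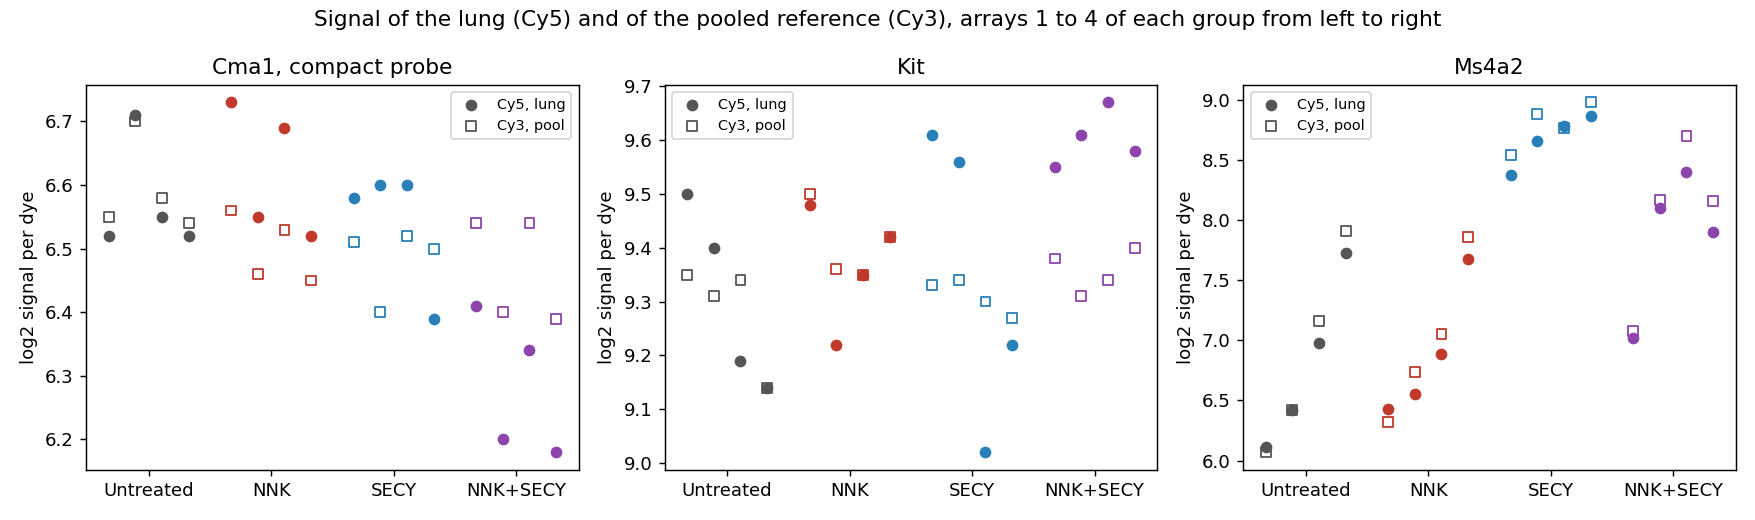
Log2 signal of the lung in Cy5 (filled) and of the common pool in Cy3 (open) on each of 16 arrays, for the compact Cma1 probe, Kit and Ms4a2; the vertical scales differ. For Cma1 the Cy5 signal of each NNK+SECY array lies below its Cy3 signal. For Ms4a2 both dyes move together over a wide range, with the SECY arrays highest as a group.

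Across the 9 tested probes, 1 was lower and 0 were higher in NNK+SECY than in NNK lungs by limma at an adjusted p under 0.05, and 8 did not pass. Of all probes, 1.56% were called there. By unadjusted p, 3 of 9 were under 0.05, where 9.8% of all probes were. The groups did not overlap for 4 of 9, against 8.09% of all probes. Among the 4 is Fcer1a, whose shift was in the pool's channel. The median log2 difference of the 9 was -0.07, against 0.002 for all tested probes, and 7 of 9 lay below 0, where 49.1% of all probes did. Since 2 genes contribute 2 probes, the 9 values are not independent.

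In the other comparisons limma called 0 of the 9 probes. It called 0.00651% to 1.44% of all probes there, so 9 probes would hold few calls or none at the background share. An unadjusted p under 0.05 was found for 1 of 9 in NNK against Untreated, 0 of 9 in SECY against Untreated and 3 of 9 in NNK+SECY against Untreated. It was found for 2 of 9 in NNK+SECY against SECY and for 2 of 9 in the interaction. The corresponding shares of all probes were 4.76%, 7.89%, 8.78%, 6.08% and 4.56%. Groups did not overlap for 1 of 9 probes in NNK against Untreated (3.62% of all probes), 0 of 9 in SECY against Untreated (3.85%), 2 of 9 in NNK+SECY against Untreated (6.56%) and 1 of 9 in NNK+SECY against SECY (2.85%). The median log2 difference of the 9 probes ran from -0.08 in NNK+SECY against Untreated to 0.04 in NNK against Untreated. The compared groups share samples, so these counts are not independent of each other.

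**Figure D3:**
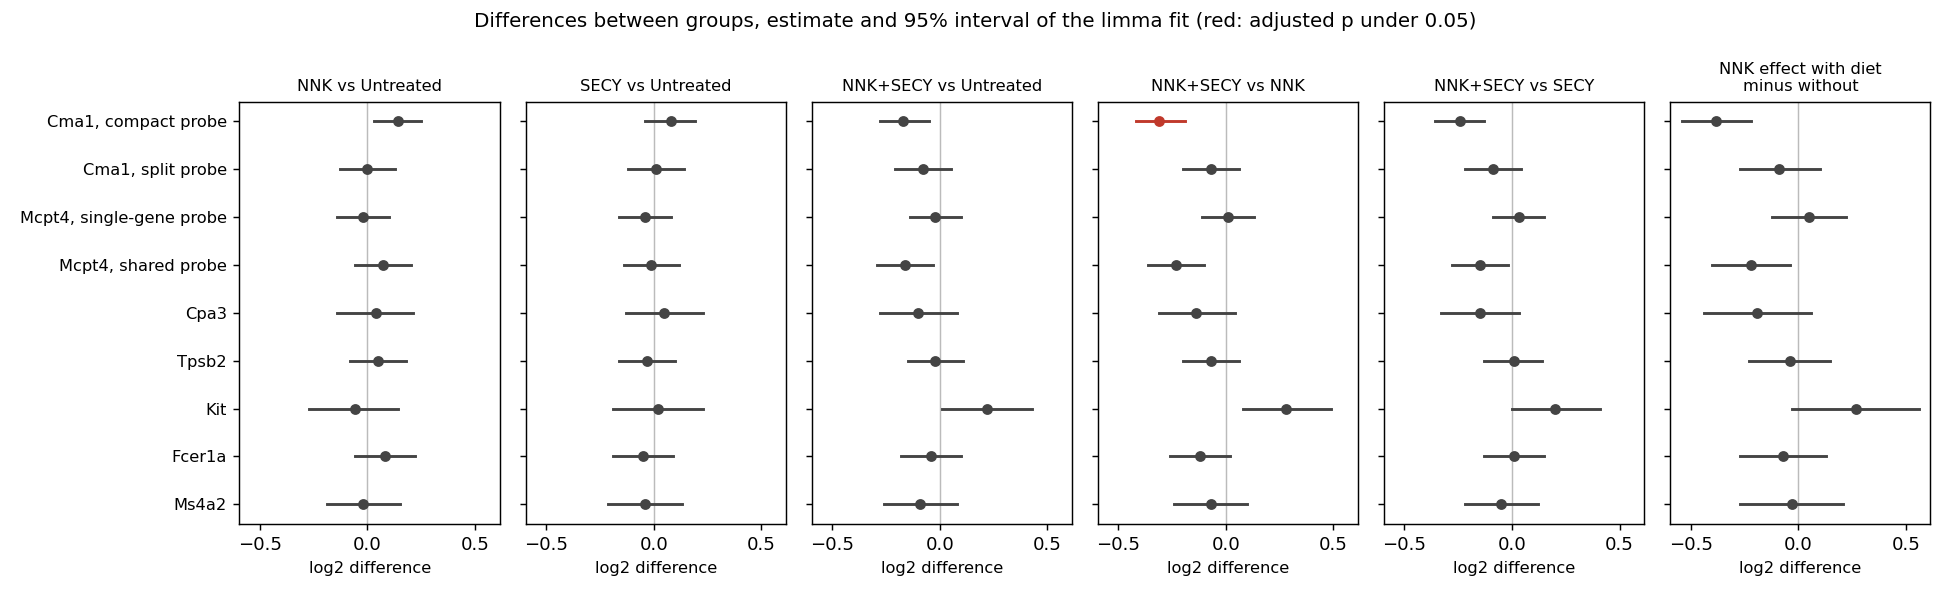
Log2 difference with its 95% interval for 9 probes (rows) in the 5 comparisons and the interaction (columns); red marks an adjusted p under 0.05. The only red interval is the compact Cma1 probe in NNK+SECY against NNK, from -0.42 to -0.19.

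The processing moved the proteases more than Kit. With an offset of 10 in place of 50 the log2 difference of the compact Cma1 probe between NNK+SECY and NNK was -0.56, and that of the shared Mcpt4 probe was -0.40. Kit, which is bright, stayed between 0.25 and 0.31 under the 29 alternatives. Cpa3 lay between -0.34 and -0.10 and was never called.

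**Figure D4:**
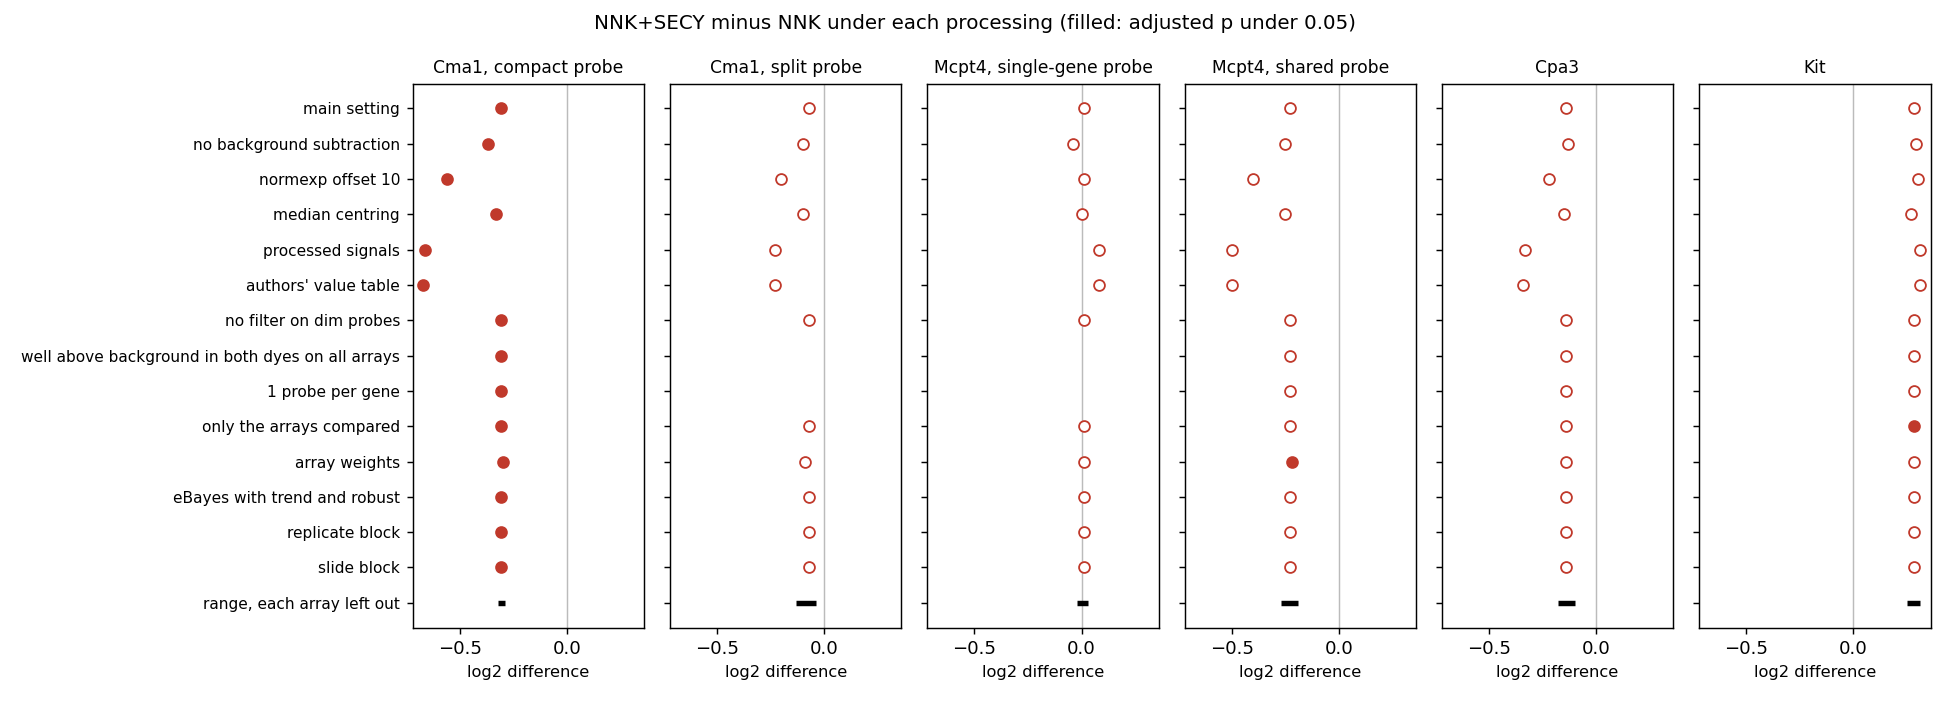
Log2 difference between NNK+SECY and NNK (horizontal axis) for 4 chymase probes, Cpa3 and Kit under each processing (rows); filled points have an adjusted p under 0.05, and bars give the range with each array left out. The compact Cma1 probe is filled throughout, between -0.67 and -0.29, the shared Mcpt4 probe is filled with array weights, and Kit with only the arrays compared.

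Other genes of the mast cell programme gave no calls in any comparison by limma, where 0.00651% to 1.56% of all probes were called, so that lists of this length would hold few calls or none at the background share: 0 of 12 tested genes for further granule contents, 0 of 15 for IgE receptor signalling, 0 of 16 for Kit signalling, transcription factors and cytokines, and 0 of 8 for eicosanoid enzymes. Between NNK+SECY and NNK the median log2 differences of these lists were -0.01, -0.03, -0.04 and -0.05. Hdc, which makes histamine, ranged in log2 difference from -0.25 to 0.20 over the 6 comparisons, with a lowest limma adjusted p of 0.248. The 2 probes of Fcer1g, the signalling chain of the IgE receptor, ranged from -0.14 to 0.00. The 2 probes of Kitl, the ligand of Kit, ranged from -0.11 to 0.14, and the 2 of Gata2 from -0.06 to 0.07. Smallest limma adjusted p-values were 0.428 for Fcer1g, 0.875 for Kitl and 0.948 for Gata2. The mucosal mast cell proteases Mcpt1 and Mcpt2 were well above background in Cy5 on 4 and 0 of the 16 arrays and were not tested.

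The summed Cy5 signal of the 7 tested member probes other than Kit and Ms4a2 was 606.9 to 671.5 in Untreated, 644.6 to 689.8 in NNK, 603 to 659.2 in SECY and 577.3 to 632.7 in NNK+SECY lungs. NNK+SECY lungs lay below all NNK lungs on this sum and overlapped both other groups. This sum holds both probes of Cma1 and of Mcpt4, among them the called compact Cma1 probe, so it adds no independent support. The sum over all 9 tested probes, to which Kit and Ms4a2 contribute most, ran the other way, at 1336 to 1546 in NNK and 1513 to 1756 in NNK+SECY lungs, and there the groups overlapped. It was 1315 to 1433 in Untreated and 1598 to 1815 in SECY lungs. In NNK+SECY against NNK, Ms4a2 was higher by 0.97 log2 units in Cy5 and by 1.04 in the pool's Cy3. In SECY against Untreated these Ms4a2 differences were 1.86 and 1.90. The part of Ms4a2 in the higher sums was therefore not specific to the lung channel. For Kit, the Cy5 and Cy3 differences of NNK+SECY from NNK were 0.24 and -0.05. All of these sums include the offset that the main processing adds to every signal.

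Markers of other cell types are given beside the Cma1 result for NNK+SECY against NNK, where 49.1% of all probes lay below 0 and 1.56% were called. The part of these cell types in the Cma1 result was not tested. All 9 tested mesothelial markers were below 0 on the log2 scale in that comparison, with a median of -0.19 and 0 calls. Their summed Cy5 signal was 4682 to 5157 in NNK and 3783 to 4486 in NNK+SECY lungs. It was 4791 to 5092 in Untreated and 3743 to 4733 in SECY lungs. Between NNK+SECY and SECY, 4 of these 9 markers were below 0, with a median of 0.00. Of 10 smooth muscle markers, 9 were below 0 in NNK+SECY against NNK, with a median of -0.11 and 0 calls. Their sums were 10784 to 11857 in NNK and 9755 to 11875 in NNK+SECY lungs. Of 10 fibroblast markers 7 were below 0, with a median of -0.13 and 1 call: Mfap4, an extracellular matrix glycoprotein, differed by -0.87 on the log2 scale (limma adjusted p = 0.0121). Their sums were 23576 to 29240 and 17587 to 22214. Mfap4 and Col14a1, a fibril-associated collagen, were also lower in NNK+SECY than in Untreated lungs, by log2 differences of -0.73 and -0.29 (limma adjusted p = 0.0466 and 0.0316). Against Untreated lungs 1.44% of all probes were called. Between NNK+SECY and NNK, eosinophil markers gave 0 calls of 5, with a median of -0.08. The basophil list shares Cpa3, Fcer1a and Ms4a2 with the members, and its other 4 tested genes gave 0 calls. The eosinophil markers Epx and Prg2 were well above background in Cy5 on 0 and 1 of the 16 arrays and were not tested.

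Genes whose log2 ratios were most like those of the compact Cma1 probe over the 16 arrays were Anapc13 (Pearson r = 0.85), Lage3 (0.84), Pcdha6 (0.81), Arhgef2 (0.81) and Ncmap (0.78). Correlations were taken for 30071 probes. Members and probes named by a clone or accession were then left out, and the best probe of each remaining gene was ranked. Of the 5 genes, Arhgef2 was lower in NNK+SECY than in NNK lungs, by a log2 difference of -0.19 (limma adjusted p = 0.0343). These genes were picked by likeness to the Cma1 probe over the same arrays, so that call adds no independent support. The 5 most like Cpa3 were Abra (0.83), Anapc13 (0.81), Ccl2 (0.79), Myl6 (0.79) and Aif1 (0.77). Anapc13 was on both lists. These are the highest of many correlations over 16 arrays that share slides and scan days, and no mast cell member was among the candidates. Among the 9 member probes the 36 pairwise correlations ran from -0.70, between the shared Mcpt4 probe and Kit, to 0.68, between the shared Mcpt4 probe and the compact Cma1 probe, with a median of 0.14.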

How the data were processed

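Lung RNA of 16 mice was hybridised to 16 Agilent 2-colour arrays on 8 slides. Spots were quantified by Feature Extraction 8.1.1.1, as the file headers say. The authors' scanner files, as deposited, give mean spot intensity and local background intensity per dye, and a log10 ratio of the processed signals, red over green. The authors' deposited value table is on the log2 scale: it equals that ratio times log2 of 10 within 0.005, with column medians at 0. From the intensities, background was corrected by normexp with an offset of 50, dyes were balanced by loess within each array (control and flagged spots at weight 0), and spots of a probe were averaged, with limma 3.58.1 in R 4.3.3 and the package data.table (version 1.17.8). A log2 ratio is per array, lung over pool, and an SE is that of the fit.

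A mean per group was fitted over all 16 arrays for 30749 probes that had, in at least 1 group, a Cy5 signal well above background on each of its 4 arrays. The 5 pairs of groups and the interaction were tested by limma with Benjamini-Hochberg adjustment over all tested probes at 0.05. Flagged spots were left out, so 30738 to 30748 probes entered a comparison. The number of arrays limits the precision. Labels do not say that animals were paired across groups. Replicates are single mice, and scripts were tested on simulated data.

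Probes were named through RefSeq accessions (22072 probes), symbols (6280) or synonyms (4226), with 8596 kept as the file names them. The named genes are every probe of the 8 members, list genes past the threshold in any comparison, Hdc, Fcer1g, Kitl and Gata2, and the 5 genes most like Cma1 and Cpa3. List genes are represented by their brightest probe. Members and lists were chosen with earlier results of these data known. Alternatives were another background correction or offset, median centring, processed signals, the value table, 2 other filters, 1 probe per gene, only the arrays compared, array weights, a trended robust prior, replicate and slide blocks, and leaving out each array. No source used here gives the build of the probe coordinates.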

Additional observations from a re-analysis of the deposited data

Results flagged for a closer look

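In 4 of 36 groups of 4 arrays, 1 array stood far from the other 3, where chance gives about 1 in 20. For the compact Cma1 probe (A_51_P514035), NNK+SECY replicate 1 had a log2 ratio of -0.13 and the others -0.20. Kit in NNK replicate 2 was at -0.14, with the others at -0.02 to 0.00. Fcer1a in NNK+SECY replicate 4 was at -0.25, with the others at -0.06 to -0.03. Ms4a2 in NNK replicate 1 was at 0.11, with the others at -0.19 to -0.16. The 4 values come from 4 different arrays, and the flagged Cma1 value lies toward the other groups.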

How the results depend on the processing

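The decrease of the compact Cma1 probe (A_51_P514035) in NNK+SECY against NNK passed the threshold under 29 of 29 alternatives, 13 of processing and 16 that leave out 1 array, and no member result that was called in either setting turned its direction. These alternatives are not independent, and several leave the compared NNK+SECY and NNK values unchanged. None of them separates diet from slide set in this comparison. The count of member probes past the threshold in that comparison, 1 in the report, was 2 with only the arrays compared (Kit added) and 2 with array weights (the shared Mcpt4 probe added), and 1 to 2 with an array left out. Same-numbered arrays did not deviate together in every pair (correlations -0.14 to 0.49). These correlations cannot show whether the numbers pair the mice, since some same-numbered arrays also share a slide. With the replicate block the compact Cma1 log2 difference stayed at -0.31 (limma adjusted p = 0.00449) and the count at 1. Counts over all probes depended more on the setting. For NNK against Untreated the 65 calls became 24 to 106 under other processing and 18 to 137 with an array left out. For SECY against Untreated the 87 became 35 to 296 and 60 to 315, and 167 with the replicate block. For NNK+SECY against Untreated the 443 became 337 to 647 and 233 to 553. The 481 of NNK+SECY against NNK became 362 to 693 and 363 to 642. The 2 of NNK+SECY against SECY became 0 to 3 and 0 to 8, and the 2 of the interaction 0 to 2 and 0 to 3. The cause was not tested. Scan day was not run as a block because it coincides with NNK, and both comparisons within a day are themselves reported. With slide as a block the correlation within slides was 0.121. Signals near background limit every protease, and Tpsab1 could not be measured.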
